A study of Apis mellifera with 3 samples.

Results

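Aminoacyl-tRNA synthetases join each amino acid to the tRNA that carries its anticodon, at the cost of ATP, and so supply the ribosome with the building blocks it reads into protein. Cells keep one set of these enzymes in the cytosol for the translation of nuclear messages and a second, largely separate set in mitochondria, made from nuclear genes and imported. The hypopharyngeal glands lie in the head of the worker honeybee and secrete the proteins of royal jelly, so that their cells translate secreted protein on a large scale.

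The synthetases were taken from the 21441 transcript sequences of the deposited tables by words. A sequence was kept where its protein match or its orthology text named a tRNA synthetase, a tRNA ligase or the aminoacyl tRNA synthase complex, which gave 74 sequences. For 59 of them the sequence's own protein match was to a synthetase, with 45 different proteins matched. Cytosolic enzymes accounted for 36 sequences (26 proteins, covering all 20 amino acids) and mitochondrial enzymes, so named in the match, for 23 sequences (19 proteins, covering 15 amino acids). A match without the word mitochondrial was counted as cytosolic, also where it named no compartment, as for lysine, glycine, glutamine and valine. Whether such sequences also serve mitochondria was not examined. One further sequence, TC12716, matched a scaffold protein of the multisynthetase complex. The remaining 14 sequences held the words only in their orthology text, while their own protein match was to another protein. Through the bee gene named in the orthology text, 50 of the 59 sequences were paired with a gene symbol of the RefSeq annotation, 31 different symbols in all.

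The study compared 3 pools of workers of the carnica strain, each of 30 full-sister bees and each sequenced as 1 library from oligo-dT enriched RNA. The labels name the pools winter, spring and retired and give their ages as day 3, day 6 and day 9 after emergence, so group and age cannot be told apart. The extraction protocol names the glands, whereas the design text speaks of pooled heads. With 1 library a group there is no replicate, no test across bees is possible, and every statement below compares 3 libraries, not 3 conditions.

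The winter library held about 3850000 uniquely mapped reads, the spring library 3290000 and the retired library 3180000. The unit of level is RPKM, which divides the reads of a sequence by its length and by the mapped reads of the library, and 3 reads on a sequence of 1 kb were worth 0.780, 0.912 and 0.944 RPKM in winter, spring and retired pools. A ratio of 2 libraries is the ratio of reads per library total, and the range in brackets behind it is its exact 95% interval (Clopper-Pearson). Such intervals cover counting error only, since no second library shows the spread between pools. Whether PCR copies of a molecule were removed before counting is not known here. Counts and medians over sequences use those that reach 10 RPKM in either library compared, and the log2 ratios are those of RPKM + 1, which understates the change of low sequences. Royal jelly protein sequences made up 7.00%, 21.1% and 18.1% of the reads of winter, spring and retired pools, and so left the other transcripts a smaller share in the spring and retired libraries. The median log2 ratio of all sequences was -0.26 for spring over winter, -0.02 for retired over spring and -0.26 for retired over winter. Some calls and directions changed after 2 other scalings of whole libraries, first the median of ratios and second the total less royal jelly proteins and the sequences of highest RPKM, and values or counts after them are given beside the main ones. The shares of all sequences beside the counts are those as deposited. Both scalings raise every ratio over winter by a common factor, so a gain in a count is not particular to the members. Glucose oxidase, another gland product, summed to 5967, 5807 and 9014 RPKM in winter, spring and retired pools. The alpha-glucosidase precursor, also a gland product, summed to 7818, 1000 and 15421 RPKM. Unlike the royal jelly proteins, both were lowest in the spring and highest in the retired library. The neuron markers summed to 1499, 1222 and 1254 RPKM in winter, spring and retired pools, with 17 of 17 sequences read in each. In the same order the muscle markers summed to 625, 464 and 673 RPKM, the photoreceptor markers to 161, 133 and 302 RPKM and the blood cell markers to 62.4, 36.9 and 30.1 RPKM. The fat body markers summed to 81.6, 27.8 and 17.8 RPKM, with at most 1 of 6 sequences at 0 in any library. The part of other tissues in the values below was not tested, and in a pool of tissue fewer cells of a type and less RNA per cell cannot be told apart.

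Cytosolic synthetases were highest in the spring library almost without exception. They held 0.133% of all winter reads (95% Wilson interval 0.130 to 0.137%), against 0.208% in spring (0.204 to 0.213%) and 0.166% in retired bees (0.161 to 0.170%). Of the 36 sequences, 21 reached 10 RPKM, and these 21 were above that level in every library, so that none entered through the library in which it was high. The other 15 were short or scarcely read, with 0 to 19 reads in a library on 400 to 1707 bases. Of the 21, 20 had their highest level in the spring library, against 21.0% of all sequences at 10 RPKM or more. From high to low 16 ran in the order spring, retired, winter, as did 1177 of all 12208 sequences at that level. The exception was the lysine enzyme, which was highest in the winter library as deposited but in the spring library after both other scalings.

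**Figure D1:**
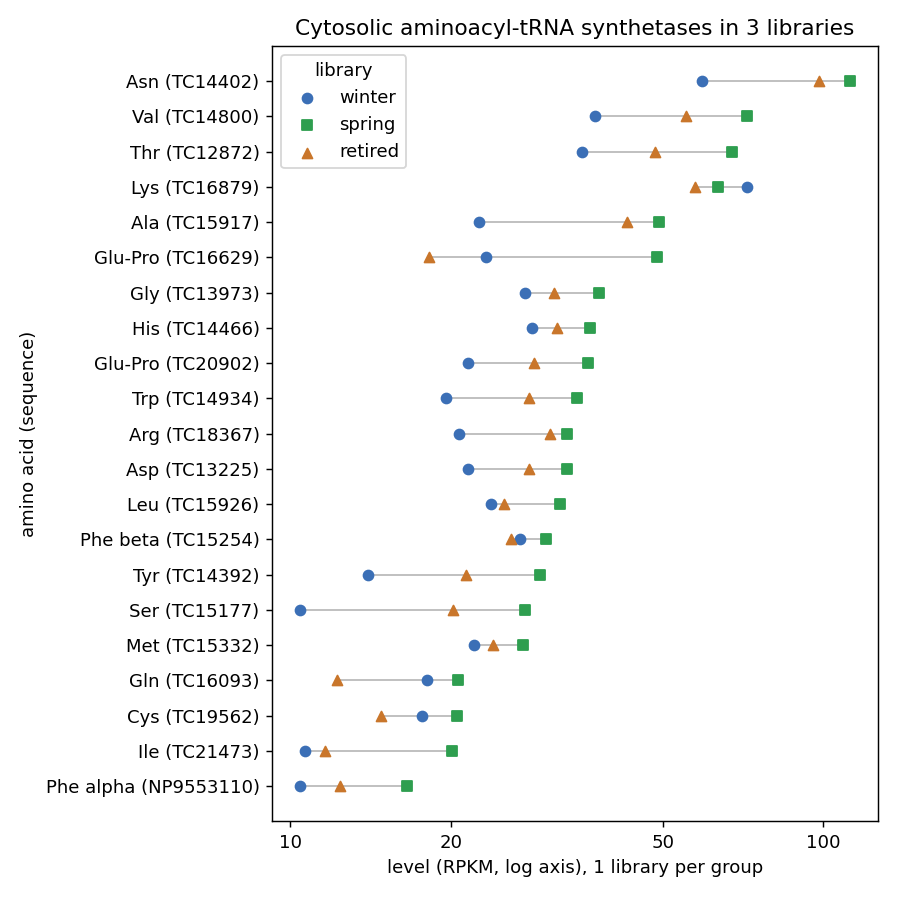
Level of the 21 cytosolic synthetase sequences with at least 10 RPKM, 1 row per sequence named by its amino acid, on a log axis in RPKM; blue circles are the winter, green squares the spring and orange triangles the retired library. The green squares lie to the right of both other points in every row except that of lysine (TC16879), where the winter circle at 71.9 RPKM is the highest.

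Spring against winter asks how the pool labelled spring differed from the winter pool. Summed over all 36 cytosolic sequences, synthetase reads were 1.57-fold higher in the spring library (1.51 to 1.62). Of the 21 sequences, 17 had an interval above 1, against a background of 7.40% of all sequences, and 1 had an interval below 1, against 34.0%. On the log2 scale 4 reached a 2-fold higher spring level, where the background was 2.14%, and 0 were at least 2-fold lower, where it was 4.76%. These 4 were the alanine, serine and tyrosine sequences and the piece TC16629 of the glutamate and proline enzyme. After the 2 other scalings 9 and 8 sequences passed, beside 431 and 389 of all sequences in place of 258. The median log2 ratio of the 21 was 0.65, beside -0.26 over all sequences. With reads summed for each of the 20 enzymes or chains, 16 intervals lay above 1, 3 included 1 and 1 lay below; after each of the other scalings 19 lay above and 0 below.

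Serine had the highest ratio of the 20. Its seryl-tRNA synthetase (TC15177, gene LOC413011), which recognises its tRNA without reading the anticodon, had 10.4, 27.5 and 20.2 RPKM in winter, spring and retired pools. The enzyme's summed reads were 202 in the spring library and 93 in the winter library, a ratio of 2.54 (1.98 to 3.29). Reads covered only 0.27, 0.26 and 0.27 of the length of TC15177 in the winter, spring and retired pools, so its level rests on a short stretch of the sequence.

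Alanine came next. The alanine enzyme (TC15917, LOC411923), which recognises its tRNA by a single base pair of the acceptor stem, had 22.6, 49.2 and 42.8 RPKM in winter, spring and retired pools. That is 649 spring and 348 winter reads, a ratio of 2.18 (1.91 to 2.49). The tyrosine enzyme (TC14392, LOC413909) had 14.0, 29.4 and 21.4 RPKM in the same order of libraries. Its reads, summed over 6 sequences of which 5 are short pieces with 10 or fewer reads, were 2.05-fold higher in the spring library (1.64 to 2.56). The winter library was the lowest of the 3 for both.

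Valine and threonine enzymes, a pair whose editing sites remove wrongly joined neighbours in size, followed closely. The valine enzyme (TC14800, LOC411734) had 37.2, 71.9 and 55.4 RPKM in winter, spring and retired pools and a ratio of 1.93 for spring over winter (1.73 to 2.15). Threonine's (TC12872, LOC412200) had 35.2, 67.5 and 48.4 RPKM, with a ratio of 1.93 (1.69 to 2.20). The asparagine enzyme (TC14402, LOC551088) was the most abundant synthetase of the spring and retired libraries at 112 and 98.2 RPKM, and had 59.2 RPKM in the winter library. Its ratio was 1.90 (1.69 to 2.14). Isoleucine (TC21473, LOC551629), with 10.6, 20.1 and 11.6 RPKM in winter, spring and retired pools, had a ratio of 1.89 (1.55 to 2.32), and tryptophan (TC14934, LOC727582) with 19.6, 34.6 and 28.0 RPKM one of 1.75 (1.37 to 2.22). For isoleucine the winter and retired levels lay close together.

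In animals a single long protein, glutamyl-prolyl-tRNA synthetase, charges both glutamate and proline. It was represented by 3 short sequences, of which 2 were read above 10 RPKM. TC16629, of 536 bases, had 23.3, 48.8 and 18.2 RPKM in winter, spring and retired pools. TC20902, of 1075 bases, had 21.5, 36.2 and 28.7 RPKM. Both were highest in the spring library, but the first was lowest in the retired and the second in the winter library. Summed, the reads were 214 in the spring and 137 in the winter library, a ratio of 1.83 (1.47 to 2.28).

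**Figure D2:**
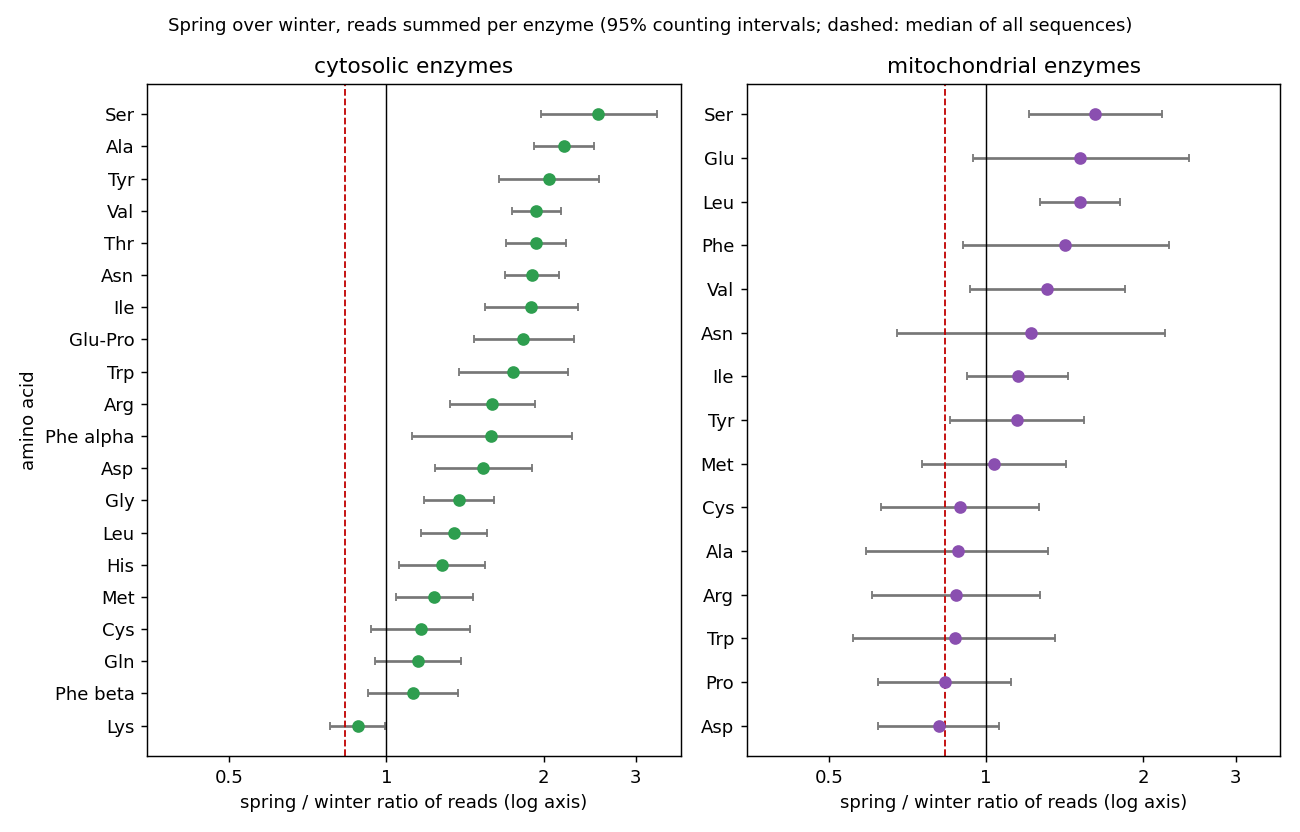
Ratio of reads per library total, spring over winter, for each cytosolic enzyme (left, green) and each mitochondrial enzyme (right, purple) with reads summed over its sequences, on a log axis; bars are exact 95% counting intervals, the solid line marks 1 and the dashed line the median of all sequences. Cytosolic enzymes run from lysine at 0.881 to serine at 2.54 with 16 intervals to the right of 1, whereas 13 of the 15 mitochondrial intervals include 1.

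The middle of the range held arginine, aspartate and the alpha chain of the phenylalanine enzyme. Arginine's (TC18367, LOC550903) had 20.7, 33.0 and 30.8 RPKM in winter, spring and retired pools, with a spring over winter ratio of 1.59 (1.32 to 1.92). The aspartate enzyme (TC13225, LOC409945) had 21.5, 33.0 and 28.1 RPKM and a ratio of 1.53 (1.24 to 1.90). Phenylalanyl-tRNA synthetase of the cytosol is built from alpha and beta chains. The alpha chain, which holds the active site (NP9553110, LOC552768), had 10.4, 16.5 and 12.4 RPKM and a ratio of 1.59 (1.12 to 2.26), while the beta chain (TC15254, LOC551101) had 27.0, 30.2 and 25.9 RPKM and a ratio of 1.13 (0.923 to 1.37). These intervals overlap, so at this depth the chains of the one enzyme were not shown to differ in ratio.

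Smaller ratios were seen for glycine at 1.38 (1.18 to 1.61), leucine at 1.35 (1.16 to 1.56), histidine at 1.28 (1.06 to 1.54) and methionine at 1.24 (1.04 to 1.47), the enzyme that also charges the initiator tRNA. Their levels in the winter, spring and retired pools were 27.6, 37.9 and 31.2 RPKM for glycine (TC13973), 23.8, 32.1 and 25.2 for leucine (TC15926), 28.4, 36.6 and 31.6 for histidine (TC14466) and 22.1, 27.3 and 24.0 for methionine (TC15332). All 4 were lowest in the winter library.

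The 5 smallest ratios included methionine and those of cysteine, glutamine, the phenylalanine beta chain and lysine. Cysteine (TC19562, LOC411167) had 17.7, 20.6 and 14.8 RPKM in winter, spring and retired pools and a ratio of 1.16 (0.935 to 1.45). Glutamine (TC16093, LOC413718) had 18.0, 20.6 and 12.2 RPKM and a ratio of 1.15 (0.953 to 1.39). Both intervals include 1 as deposited, as does that of the beta chain. After the other scalings all 3 lie above 1, with ratios of 1.39 and 1.34 for cysteine, 1.38 and 1.33 for glutamine and 1.35 and 1.30 for the beta chain. Lysine (TC16879, LOC551538) had 71.9, 63.4 and 57.4 RPKM, with 465 spring and 618 winter reads over its 2 sequences and a ratio of 0.881 (0.779 to 0.995), which became 1.05 (0.933 to 1.19) and 1.02 (0.899 to 1.15) after the other scalings. It was the most abundant synthetase of the winter library, above asparagine, and stood below asparagine, valine and threonine in the spring library. Its log2 ratio of -0.18 compares with the median of -0.26 over all sequences.

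Retired against spring asks how the oldest pool differed from the pool before it. Every one of the 20 cytosolic enzymes had a ratio below 1, from 0.576 to 0.932. Among all 11413 sequences at 10 RPKM or more in either library, 5313 had a ratio above 1. The summed reads were 1.26-fold lower in the retired library (1.21 to 1.30). Of the 21 sequences, 12 had an interval below 1, against a background of 11.0% of all sequences, and 0 an interval above 1, against 8.71%. The median log2 ratio was -0.33, beside -0.02 over all sequences. The one sequence at least 2-fold lower in the retired library was the piece TC16629 of the glutamate and proline enzyme, where 1.96% of all sequences were, and 0 were at least 2-fold higher, where 1.81% were. This comparison uses the same spring library as the one with winter, so a high spring value enters both.

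Isoleucine had the lowest ratio, with 143 retired and 257 spring reads and a ratio of 0.576 (0.466 to 0.709). Glutamine followed at 0.591 (0.472 to 0.737), with 129 retired and 226 spring reads. The glutamate and proline enzyme had a ratio of 0.629 (0.502 to 0.785), tyrosine one of 0.687 (0.556 to 0.847) and threonine one of 0.714 (0.628 to 0.811). Within the glutamate and proline enzyme the pieces differed beyond counting error, since TC16629 was 2.68-fold lower in the retired library (1.76 to 4.18) and TC20902 1.26-fold lower (0.963 to 1.66), so its summed ratio depends on a piece with 31 retired and 86 spring reads.

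At the other end, arginine stood at 0.932 (0.781 to 1.11), lysine at 0.906 (0.791 to 1.04), methionine at 0.881 (0.739 to 1.05), asparagine at 0.874 (0.785 to 0.974) and alanine at 0.869 (0.774 to 0.975). Of these 5, the intervals of asparagine and alanine lie below 1 and the others include it. Serine at 0.738 (0.592 to 0.918) and valine at 0.770 (0.695 to 0.852) were also lower in the retired library.

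Retired against winter sets the 2 outer pools against each other. Cytosolic synthetase reads were 1.24-fold higher in the retired library (1.20 to 1.29). Among the 21 sequences, 9 had an interval above 1, against a background of 5.65%, and 2 an interval below 1, against 33.8%. None was at least 2-fold higher, where 1.31% of all sequences were, or at least 2-fold lower, where 5.43% were. The median log2 ratio was 0.23, beside -0.26 over all sequences. Of the 20 enzymes, 9 had an interval above 1, or 15 after each of the other scalings. The 9 were alanine, arginine, asparagine, aspartate, serine, threonine, tryptophan, tyrosine and valine.

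Alanine had the highest ratio at 1.90 (1.66 to 2.18), with 545 retired and 348 winter reads. Serine stood at 1.88 (1.43 to 2.46), asparagine at 1.66 (1.47 to 1.88), valine at 1.49 (1.33 to 1.67) and arginine at 1.49 (1.23 to 1.80). Glutamine and lysine had intervals below 1, with ratios of 0.679 (0.543 to 0.846) and 0.798 (0.702 to 0.905). After the other scalings glutamine stood at 0.833 (0.666 to 1.04) and 0.791 (0.632 to 0.985), and lysine at 0.978 (0.861 to 1.11) and 0.928 (0.817 to 1.05), so lysine's intervals then include 1, as does glutamine's after the median of ratios. For glutamine the reads were 129 in the retired and 230 in the winter library. Cysteine at 0.836 (0.655 to 1.06), the phenylalanine beta chain at 0.968 (0.785 to 1.19) and leucine at 1.06 (0.902 to 1.24) complete the 5 smallest, and their intervals include 1 as deposited. After the other scalings cysteine stood at 1.02 and 0.973 and the beta chain at 1.19 and 1.13, with intervals that still include 1, whereas leucine at 1.30 (1.11 to 1.52) and 1.23 (1.05 to 1.44) had intervals above 1.

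**Figure D3:**
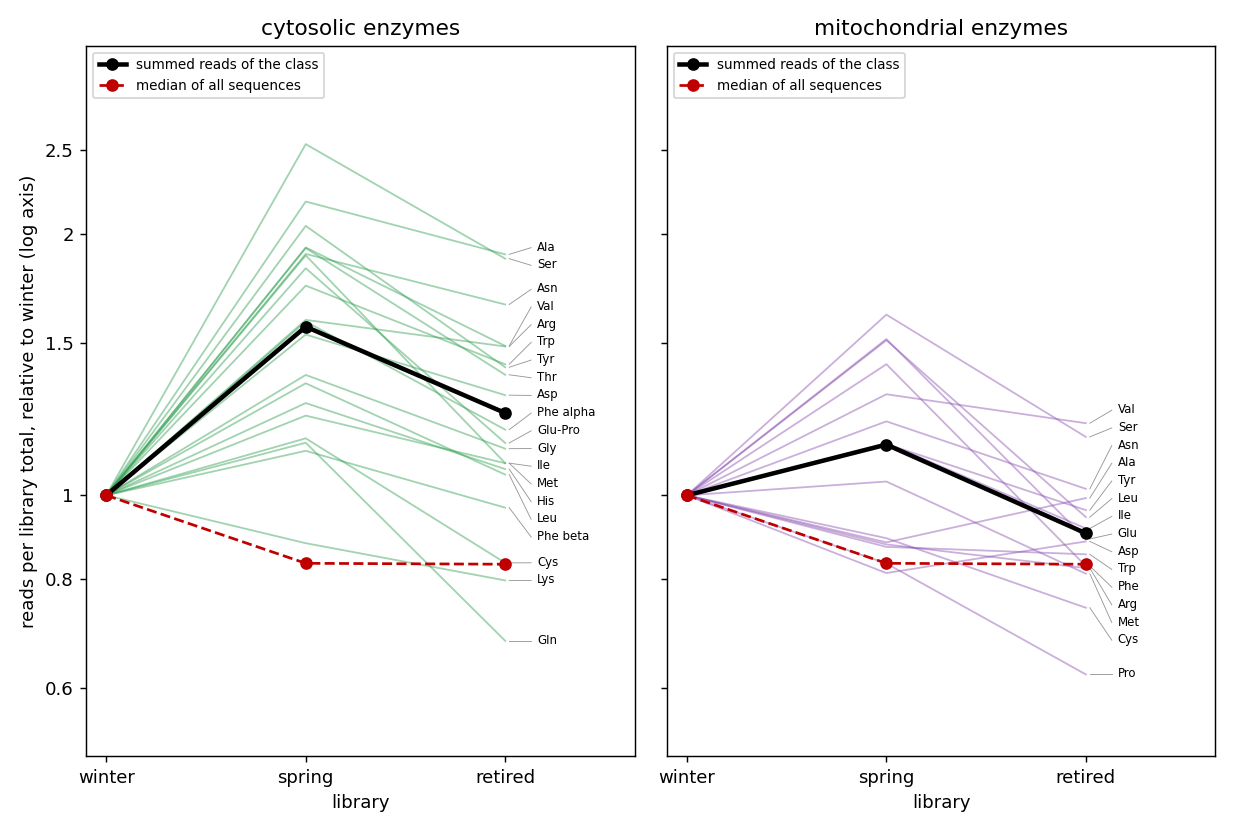
Reads per library total relative to the winter library, on a log axis, for each enzyme in the winter, spring and retired pools (thin lines, named by amino acid at the right), with the summed class in black and the median of all sequences in dashed red. The cytosolic class stands at 1.57 in spring and 1.24 in retired bees, the mitochondrial class at 1.14 and 0.904.

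In animal cells 8 cytosolic enzymes, here arginine, aspartate, glutamine, glutamate and proline, isoleucine, leucine, lysine and methionine, are bound into one multisynthetase complex, held together by scaffold proteins. For those 8 the summed reads were 1.28-fold higher in the spring than in the winter library (1.21 to 1.36), with a median ratio of 1.44. For the 12 enzymes and chains outside the complex they were 1.76-fold higher (1.68 to 1.85), with a median ratio of 1.82. The single ratios of the groups overlap widely, from 0.881 to 1.89 for the 8 and from 1.13 to 2.54 for the 12. Lysine, which supplies many of the reads of the complex, moves the summed ratio of the 8. Without it, a choice made after seeing the values, the other 7 were 1.45-fold higher (1.35 to 1.55). Retired over winter, the 8 had a ratio of 1.01 (0.948 to 1.08), or 1.10 without lysine (1.02 to 1.18), and the 12 a ratio of 1.41 (1.34 to 1.48). Retired over spring, the groups lay close together, at 0.787 (0.740 to 0.838) for the 8 and 0.799 (0.764 to 0.835) for the 12. A rescaling of whole libraries multiplies the ratios of both groups alike. The grouping comes from the complex of other animals, and its make-up in the bee was not examined here.

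The scaffold sequence TC12716 (LOC409404) had 35.0, 37.0 and 43.9 RPKM in winter, spring and retired pools. It was highest in the retired library, but its ratios of 1.06 for spring over winter (0.798 to 1.39), 1.19 for retired over spring (0.902 to 1.57) and 1.25 for retired over winter (0.959 to 1.64) all have intervals that include 1 as deposited. After the other scalings the retired over winter ratio was 1.54 (1.18 to 2.01) and 1.46 (1.12 to 1.91).

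Synthetases fall into 2 unrelated structural classes, defined by the fold of the active site. The spring over winter ratio of summed reads was 1.57 for the 9 class I enzymes (1.49 to 1.66) and 1.55 for the 10 class II enzymes and chains (1.47 to 1.63), leaving out the glutamate and proline protein, which joins one of each. The median ratios were 1.59 and 1.56. Lysine, at 0.881 the lowest of class II and with 618 winter reads its most read in winter, lowers the class II sum. A class II sum without lysine was not taken. Retired over spring, class I had a ratio of 0.760 (0.718 to 0.804) and class II one of 0.832 (0.793 to 0.873). Retired over winter, the ratios were 1.19 (1.12 to 1.27) and 1.29 (1.22 to 1.36) in the same order. In these 2 comparisons each ratio lies outside the interval of the other class, while the intervals overlap at their ends, and the difference itself was not tested.

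Mitochondrial synthetases were read at lower levels and differed less between the spring and winter libraries. Their 23 sequences held 0.0351% of all winter reads (0.0332 to 0.0370%), against 0.0401% in spring (0.0380 to 0.0423%) and 0.0317% in retired bees (0.0298 to 0.0337%). Over the 23 sequences the reads were 1.14-fold higher in the spring than in the winter library (1.06 to 1.24). They were 1.27-fold lower in the retired than in the spring library (1.17 to 1.38) and 1.11-fold lower in the retired than in the winter library (1.02 to 1.20). The last direction turns with the scaling of the libraries, to retired over winter ratios of 1.11 and 1.05 after the other scalings.

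Of the 23 mitochondrial sequences, 12 reached 10 RPKM in at least 1 library. The phenylalanine enzyme (TC15014) did so in the spring library alone, and had 6.97, 10.1 and 5.93 RPKM in winter, spring and retired pools. None of those that reached the minimum was 2-fold higher or lower in any of the 3 comparisons. Such changes were rare among all sequences too, with 2.14% up and 4.76% down for spring over winter. The shares were 1.81% up and 1.96% down for retired over spring, and 1.31% and 5.43% for retired over winter. With 12 sequences or fewer, a count of 0 therefore does not show that this set was steadier than the rest. In the spring over winter comparison 2 of 12 intervals lay above 1, against 7.40% of all sequences, and 0 below, against 34.0%. In retired over spring 0 lay above, against 8.71%, and 2 below, against 11.0%. These 2 were the leucine sequence TC14528 and the phenylalanine sequence TC15014. Because TC15014 passed the minimum through the spring library alone, a lower retired level is part of how it entered. In retired over winter, where 11 reached the minimum, 0 lay above, against 5.65%, and 1 below, against 33.8%. The other 11 sequences were under 10 RPKM in every library and are counted in the sums.

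The leucine enzyme of mitochondria (TC14528, LOC552532) was the highest of this set in the spring library. It had 19.8, 29.9 and 18.7 RPKM in winter, spring and retired pools. Its ratio was 1.51 for spring over winter (1.27 to 1.80) and 0.625 for retired over spring (0.517 to 0.755), so that the spring library stood above both others. The serine enzyme, with TC22750 at 12.3, 18.2 and 14.9 RPKM and a second sequence summed to it, had a spring over winter ratio of 1.62 (1.21 to 2.17) and a retired over spring ratio of 0.723 (0.537 to 0.968). Those 2 were the only mitochondrial enzymes of 15 whose spring over winter interval lay above 1, and none lay below. Of all single sequences 7.40% lay above and 34.0% below. After the other scalings 7 and 6 of the enzymes lay above, and no share of all sequences under those scalings is given here.

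The proline and cysteine enzymes of mitochondria were highest in the winter and lowest in the retired library as deposited, but after both other scalings the cysteine enzyme was highest in the spring library, with spring over winter ratios of 1.07 and 1.03. Proline's (TC13868, LOC726436) had 19.0, 15.9 and 11.8 RPKM in winter, spring and retired pools, and its retired over winter ratio of 0.621 (0.446 to 0.858) was the only one of the 15 with an interval below 1 in that comparison; after the other scalings it was 0.762 (0.547 to 1.05) and 0.723 (0.519 to 0.998). The cysteine enzyme (TC23557) had 21.0, 18.7 and 15.6 RPKM, and its retired over winter interval includes 1 (0.509 to 1.07). Aspartate's (TC13837, LOC725136) had 17.0, 13.3 and 15.0 RPKM, with a spring over winter ratio of 0.813 (0.622 to 1.06). The retired over spring interval lay below 1 for glutamate at 0.588 (0.345 to 0.982), leucine, phenylalanine at 0.585 (0.347 to 0.966) and serine. Of all single sequences, 11.0% had an interval below 1 in this comparison and 33.8% in retired over winter. Glutamate's interval includes 1 after the median of ratios.

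Cytosolic and mitochondrial enzymes could be set against each other in the same libraries. The cytosolic fold was 1.37 times the mitochondrial fold for spring over winter (1.26 to 1.49) and 1.38 times for retired over winter (1.26 to 1.51), intervals that lie above 1. For retired over spring it was 1.01 times (0.919 to 1.10), an interval that includes 1. This ratio of ratios is the same under any rescaling of whole libraries, because a scale factor cancels. Among the 12 amino acids with a separate cytosolic and mitochondrial enzyme, each of a single chain, the cytosolic spring over winter ratio was the higher in 11, the exception being leucine. The pairs of intervals did not overlap for alanine, arginine, aspartate, isoleucine, tryptophan and tyrosine. Retired over winter, the cytosolic ratio was the higher in 12 of 12, with intervals apart for alanine and arginine, and retired over spring it was the higher in 4.

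Sequences that held the words only in their orthology text were kept out of the enzyme sums because of that annotation. Of the 14, 8 carried orthology text naming valyl-tRNA synthetase and 3 had a cuticular protein as their own match. The most read of them (TC19505), which matched an uncharacterised bee protein, had 52.9, 47.6 and 44.7 RPKM in winter, spring and retired pools. The cuticular protein sequence TC12767 had 14.1, 6.79 and 9.36 RPKM and was lowest in the spring library. Over the 14 the reads were 1.15-fold lower in the spring than in the winter library (1.06 to 1.24), a ratio of 0.872 that became 1.04 and 1.01 after the other scalings.

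Charged tRNA is carried to the ribosome by elongation factor 1-alpha, which the beta, delta and gamma subunits recharge with GTP, and the initiator tRNA by initiation factor 2. Of 20 sequences on this list, 10 reached 10 RPKM in either the spring or the winter library, 7 with a spring over winter interval above 1, against 7.40% of all sequences, and 1 below, against 34.0%. The median log2 ratio was 0.51 for spring over winter and -0.23 for retired over spring. The bee has 2 genes for elongation factor 1-alpha, and they differed. EF1a-F2 (TC20162) had 411, 775 and 576 RPKM in winter, spring and retired pools, 1.89-fold higher in the spring than in the winter library (1.80 to 1.97). Ef-1a-f1 (TC12404) had 134, 97.4 and 112 RPKM and was 1.37-fold lower (1.22 to 1.54). Each gene had a second piece above 10 RPKM. TC14260 of EF1a-F2 had 20.5, 37.1 and 23.7 RPKM, with a spring over winter ratio of 1.81 (1.22 to 2.71). TC17479 of Ef-1a-f1 had 53.8, 45.0 and 52.9 RPKM and a ratio of 0.836 (0.648 to 1.07), so its interval includes 1. The protein matches of the 2 genes are alike, and reads of near-identical stretches could be split between them. Factor 1-beta (TC13246) had 93.5, 179 and 151 RPKM and factor 1-delta (TC12733) 68.0, 115 and 92.9 RPKM, so that both were highest in the spring library.

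**Figure D4:**
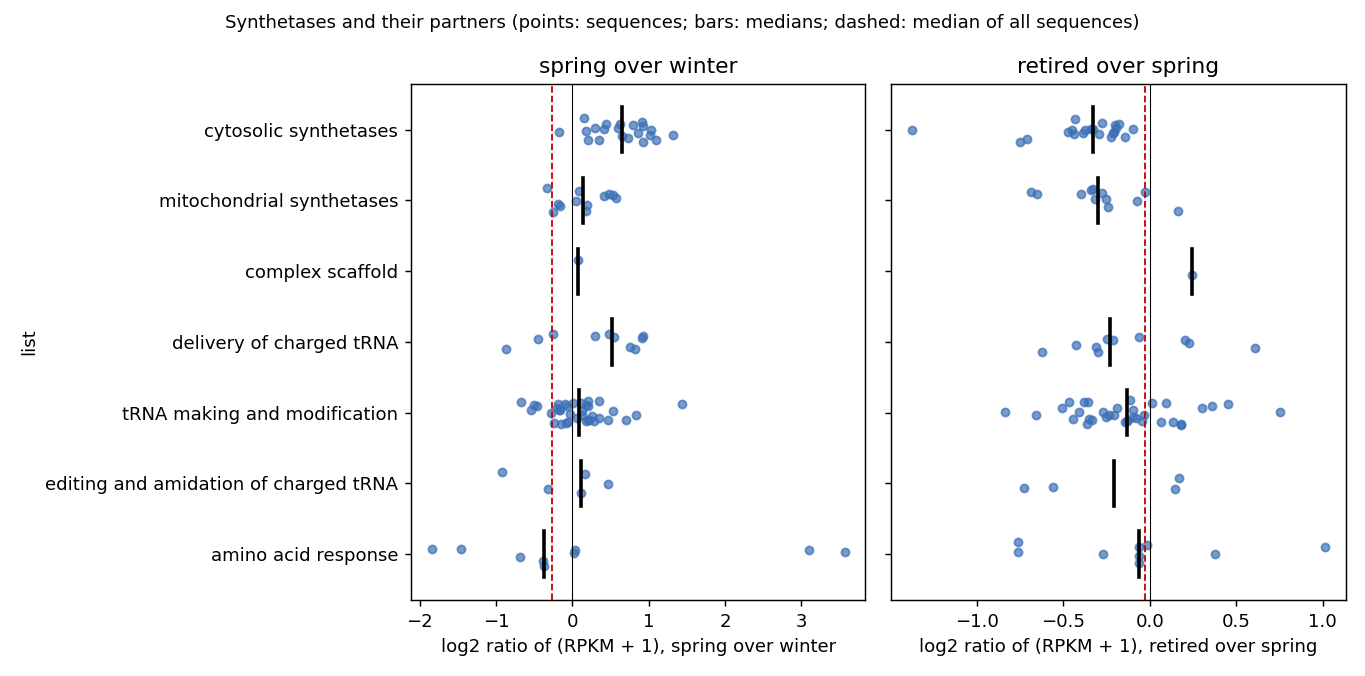
Log2 ratio of RPKM + 1 for each sequence that reaches 10 RPKM in either of the libraries compared (points, spread vertically at random), by list, for spring over winter (left) and retired over spring (right); black bars are list medians and the dashed line is the median of all sequences. The cytosolic median lies at 0.65 on the left and -0.33 on the right, the median of tRNA making and modification at 0.09 and -0.13.

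Of 56 sequences for the making and modification of tRNA, 36 reached 10 RPKM in either the spring or the winter library, with 5 spring over winter intervals above 1 and 4 below, beside 7.40% and 34.0% of all sequences. Their median log2 ratio was 0.09, beside -0.26 over all sequences. After the other scalings 10 and 8 lay above and 1 and 3 below. The one sequence at least 2-fold higher was a subunit of queuine tRNA-ribosyltransferase (NP9548782), an enzyme that puts the modified base queuosine into the anticodon. It had 3.41, 11.0 and 9.02 RPKM in winter, spring and retired pools, and passed the minimum through the spring library alone. A tRNA cytosine-5-methyltransferase (NP9551087) had 15.9, 29.0 and 22.8 RPKM, with a spring over winter ratio of 1.83 (1.47 to 2.29). Among the 4 below, a dihydrouridine synthase (TC21190) had 34.6, 24.2 and 27.6 RPKM and was 1.43-fold lower in the spring than in the winter library (1.17 to 1.75), a call lost after the median of ratios.

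The list of editing and amidation enzymes also took in peptidyl-tRNA hydrolases and methionyl-tRNA formyltransferase. It had 5 of 6 sequences at 10 RPKM in either the spring or the winter library. The spring over winter interval of 1 lay below 1, where 34.0% of all sequences did, and of 0 above, where 7.40% did, and after each of the other scalings 0 lay on either side. This was the D-tyrosyl-tRNA deacylase (TC17840), which clears D-amino acids from tRNA, with 16.8, 8.42 and 6.97 RPKM in winter, spring and retired pools. It passed the minimum through the winter library alone, so a lower level in the other libraries is part of how it entered. Its retired over winter interval lies below 1 as deposited but includes 1 after the median of ratios.

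The amino acid response is the pathway by which uncharged tRNA activates the kinase GCN2, which slows initiation and raises the transcription factor ATF4. In mammals ATF4 turns on asparagine synthetase and many cytosolic synthetase genes. Of 9 sequences on this list, 2 had a spring over winter interval above 1 and 5 below, beside 7.40% and 34.0% of all sequences, with a median log2 ratio of -0.37. After each of the other scalings 3 lay above and 2 below. Both of those above as deposited were pieces of asparagine synthetase (LOC724480). TC18735 had 17.1, 214 and 126 RPKM in winter, spring and retired pools, and its retired over winter ratio was 7.35 (6.05 to 8.99). The shorter TC19078 had 6.78, 65.7 and 38.4 RPKM, and the order of libraries was the same.

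The other sequences of the response had different courses. The match to an activating transcription factor (TC13895, LOC410226) had 575, 589 and 565 RPKM in winter, spring and retired pools, and its 3 ratios have intervals that include 1 as deposited; its spring over winter and retired over winter intervals lie above 1 after both other scalings. GCN2 (NP9547172, LOC725088) had 21.1, 16.0 and 13.1 RPKM and was 1.32-fold lower in the spring than in the winter library (1.09 to 1.60). Its interval includes 1 after both other scalings, with a ratio of 0.907 (0.747 to 1.10) after the median of ratios. A second piece of it (NP9547177) had 15.5, 15.7 and 15.0 RPKM, with an interval that includes 1. Sestrin (NP9551281, LOC411048), a restraint on TOR signalling in flies and mammals, had 191, 69.3 and 90.2 RPKM and was 2.76-fold lower in the spring than in the winter library (2.43 to 3.15). The translation repressor 4E-BP (TC12997) had 222, 172 and 165 RPKM, highest in the winter library as deposited, and its spring over winter interval includes 1 after the other scalings.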

How the data were processed

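RNA of 3 pools of bees was sequenced on an Illumina HiSeq system after oligo-dT enrichment and fragmentation, per the labels' protocols. For each library the authors deposited a table of transcript sequences with uniquely mapped read counts, RPKM and coverage (the fraction of the length covered), per the file headers. The sources used here do not give the aligner, the counter, the sequence set or its genome build, so no coordinates are printed. The 3 tables were joined on the sequence name with a missing sequence set to 0. Ratios with exact conditional binomial 95% intervals were computed from the deposited counts, and log2 ratios from the deposited RPKM with a pseudocount of 1, with Python 3.11.15, numpy 2.4.6, pandas 2.3.3 and scipy 1.17.1; figures were drawn with matplotlib 3.10.9. The steps were tested on simulated data. Gene symbols came from RefSeq (assembly Amel_HAv3.1) through the gene number in the orthology text.

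The members and lists were chosen with earlier results of these data known. All members are accounted for; the 5 largest and 5 smallest ratios of each comparison are given in detail. A member counted as a synthetase where its own protein match named one, a choice made on the annotation that had been planned as an alternative; taking the orthology text too was run as an alternative chosen after seeing the data. Other alternatives changed the library scaling (median of ratios, and the total less royal jelly proteins and the 10 sequences of highest RPKM in each library, 62 sequences), the unit (TPM), the minimum, the pseudocount, and the sequences kept (1 per protein, or at least 0.5 of the length covered). Unique mapping can split or drop reads of near-identical pieces. Whether the pieces of an enzyme, such as the 6 tyrosine sequences, share such stretches was not examined.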

Additional observations from a re-analysis of the deposited data

How the results depend on the processing

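Of the recomputed values, 113 moved by less than the counting interval or tolerance, 30 moved and 4 changed direction. The median log2 ratio of all sequences for spring over winter was -0.26 as deposited, 0.00 after median of ratios and -0.05 with the total that leaves out royal jelly and the most abundant sequences, and the split of all sequences at least 2-fold higher against lower was 431 to 245 and 389 to 300, beside 258 to 573 as deposited. Retired over winter, the median was -0.26, 0.03 and -0.04 and the split 328 to 257 and 276 to 331, beside 157 to 649.

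Under these 2 scalings, in that order, the summed cytosolic reads were 1.87 and 1.81 times as high in the spring as in the winter library (1.57 as deposited) and the median log2 ratio 0.90 and 0.85, with 9 and 8 sequences at least 2-fold higher in place of 4. The mitochondrial sum was 1.37 and 1.32, its median 0.43 and 0.38. Retired over winter, the cytosolic sum was 1.53 and 1.45, the median 0.50 and 0.43, with 3 and 2 sequences at least 2-fold higher in place of 0. The mitochondrial sum turned from 0.904 to 1.11 and 1.05 and its median from -0.17 to 0.11 and 0.038. These shifts follow from the scale factors by construction.

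A minimum of 50 RPKM gave cytosolic medians of 0.92 for spring over winter and 0.56 for retired over winter, with 0 sequences at least 2-fold higher in the spring and 0 at least 2-fold lower in the retired than in the spring library, because few sequences reach it; no mitochondrial median could be had. Without a minimum the spring over winter median was 0.54. A minimum of 1 RPKM or none let 3 sequences pass as at least 2-fold lower in the retired than in the spring library, and 2 against winter. With a pseudocount of 5, 1 sequence reached a 2-fold higher spring level. With the orthology text counted too, the cytosolic sums were 1.41 for spring over winter, 1.17 for retired over winter and 0.830 for retired over spring, and the spring over winter median 0.43. No paired analysis was possible because each group has 1 library.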
